A study of Mus musculus with 18 samples.

Results

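Coenzyme A (CoA) is the carrier that holds acetyl and fatty acyl groups during metabolism, and the cell makes it from pantothenate, a B vitamin. The genes described here are the pantothenate kinase family Pank1, Pank2, Pank3 and Pank4, and the later enzymes of that route, Ppcs, Ppcdc and Coasy. Pank4 is included by family, since its protein lacks pantothenate kinase activity. The 7 genes were chosen by name and were found in the count table by their Ensembl identifiers, mapped to GENCODE M21 symbols. They are 7 of 55450 genes in the table, and all 7 were among the 16270 genes that passed the filter on low counts.

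RNA was sequenced in 18 libraries from the left ventricle of mice of strain FVB/N, which per the study's methods were male. Wild-type (WT) mice were compared with littermates carrying a cardiac-specific transgene for Gαq, the signalling subunit that Gnaq encodes and that couples hormone receptors to phospholipase C; the promoter of the transgene was not given in the sources used here. Both genotypes ate either control diet (CD) or the same chow with 0.5 mg of ertugliflozin (ERTU), an inhibitor of the renal glucose transporter SGLT2, per g. Diets began at 4 weeks of age and lasted 16 weeks, so that hearts were taken at 20 weeks. The design had 4 libraries of WT CD, 5 of WT ERTU, 5 of Gαq CD and 4 of Gαq ERTU. Each library is called by its group and its number in the count table, a number that could not be tied to the replicate numbers of the labels.

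Pantothenate kinases catalyse the first, rate-controlling step of the route and are inhibited by CoA and its esters, so the pathway is held in check by its own products. Ppcs then joins phosphopantothenate to cysteine, Ppcdc removes a carboxyl group to give phosphopantetheine, and Coasy, an enzyme with a pair of activities in one chain, adds an adenylyl group and a final phosphate. The heart, which draws most of its energy from fatty acid oxidation, needs CoA to activate fatty acids, to carry them through β-oxidation and to feed the citric acid cycle. Inherited loss of PPCS function is a known cause of dilated cardiomyopathy in people.

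Of the 7 genes, Pank1 and Coasy, which sit at the entry and the end of the route, were lower in Gαq than in WT hearts, while the test across all genes called no change of Pank2, Pank3, Pank4, Ppcs or Ppcdc. The level of Pank1 was 37.2% lower and that of Coasy 24.1% lower. With 2 of 7 genes called, both lower, the share was to be read against a background of 19.6% of all genes tested called in either direction and 9.92% called lower. For diet edgeR called 0 of the 7 genes, and 0 of all genes tested.

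The sequences below show how the Pank family is laid out in the mouse genome. Pank1 has annotated starts at separate places, and the gene counts add the transcripts from all of them. GENCODE lists 4 Pank1 transcripts, of which the longest begins at base 34879455 of chromosome 19 and the other 3 between bases 34877849 and 34877917. The 250 bases before each RefSeq start that coincides with a GENCODE start are printed 5′ to 3′ on the strand of the gene (build GRCm38.p6, minus strand), with every TATAAA in either orientation in capitals. The second window ends at the start of 1 of the 3 shorter transcripts, at base 34877917, and the others begin downstream of it, at bases 34877853 and 34877849. Neither window touches an annotated Pank1 exon.
Pank1 long transcript, chr19:34879456-34879705: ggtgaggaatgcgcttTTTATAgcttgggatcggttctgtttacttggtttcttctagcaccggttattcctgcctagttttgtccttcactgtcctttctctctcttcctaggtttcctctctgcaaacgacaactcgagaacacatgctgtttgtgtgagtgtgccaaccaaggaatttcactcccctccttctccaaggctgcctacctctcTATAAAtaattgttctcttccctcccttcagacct
Pank1 shorter transcript, chr19:34877918-34878167: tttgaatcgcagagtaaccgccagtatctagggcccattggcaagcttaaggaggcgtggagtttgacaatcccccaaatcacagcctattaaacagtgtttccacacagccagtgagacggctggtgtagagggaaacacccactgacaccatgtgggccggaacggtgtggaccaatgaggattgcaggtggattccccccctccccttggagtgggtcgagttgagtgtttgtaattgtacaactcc

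The window of the long transcript held TATAAA from 35 to 30 bases before the start, and its reverse complement from 234 to 229 bases before it. TATAAA, searched on both strands, was in 12.4% of 32851 such RefSeq windows of all genes. RefSeq windows were found for 6 of the 7 genes, 9 in all, and this was the 1 window of the 9 with TATAAA. The nuclear receptor half-site AGGTCA, present in 14.02% of all windows, was found in the window of Ppcs alone among the 9. The longer forms TCAAGGTCA (0.387% of all windows) and AGGTCANAGGTCA (0.0335%), which contain that half-site, were in none of the 9. These are matches of letters in a window and not measurements of binding.

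The 3 pantothenate kinase genes other than Pank4 each carry a microRNA gene in an intron, on the same strand. The mature sequences, from RefSeq (GRCm38.p6), are shown with the seed, bases 2 to 8, in capitals, because all 3 share it.
miR-107-3p, in Pank1, chr19:34820700-34820722: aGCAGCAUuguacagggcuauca
miR-103-3p, in Pank2, chr2:131288103-131288125: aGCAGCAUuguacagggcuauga
miR-103-3p, in Pank3, chr11:35782447-35782469: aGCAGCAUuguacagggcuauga
The miR-107 and miR-103 sequences differ at 1 position, base 22. Poly(A)-selected libraries of long RNA do not measure mature microRNAs, and over all 18 libraries the rows of Mir107, Mir103-2 and Mir103-1 held 3, 16 and 0 read pairs.

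Library totals ranged from 15383566 to 20908363 read pairs. Gnaq, the overexpressed gene, had 45.5 to 229.5 CPM (read pairs per 1000000, with TMM scaling) in the WT libraries, 1639 to 11660 CPM in Gαq CD and 2234 to 5202 CPM in Gαq ERTU, so every library matched its genotype label. Of the 10 cardiomyocyte markers checked for the tissue label, 10 passed the filter, with summed levels of 74440 to 113000 CPM. Summed atrial markers ranged from 23.7 to 339.6 CPM in WT CD and from 26.2 to 354.9 CPM in WT ERTU. They ranged from 26.4 to 926.8 CPM (library 8) in Gαq CD and from 102.9 to 594.5 CPM in Gαq ERTU. Summed fat markers ranged from 4.05 to 19.8 CPM in WT CD and from 2.34 to 26.7 CPM in WT ERTU. They ranged from 2.13 to 43.7 CPM in Gαq CD and from 15.2 to 107.8 CPM in Gαq ERTU. Of 6 atrial and 6 fat markers, 5 each were tested and 0 called by genotype or diet. Of 7 fibroblast markers 5 were called higher in Gαq hearts, with summed levels of 1318 to 2569 CPM in WT and 2467 to 3664 CPM in Gαq libraries. Of 6 endothelial markers 2 were called lower, with summed levels of 1137 to 1534 CPM in WT and 1005 to 1229 CPM in Gαq libraries. Of 7 skeletal muscle markers 3 were tested and 2 called higher, with summed levels of 218.0 to 1529 CPM in WT and 689.6 to 2219 CPM in Gαq libraries, while Myh4, one of those that did not pass the filter, was at 0 in all WT libraries. Of the 10 cardiomyocyte markers, 3 were called lower and 1 higher by genotype. The part of these shifts in the results on the 7 genes was not tested. In bulk tissue, fewer cells of a type and less RNA per cell cannot be told apart. WT CD library 4 stood apart from the other libraries of its group for Pank1 and Ppcs. Values without it are given beside the results on these genes. Pdk4, on a list given below, split the libraries too. It was at 165 CPM in WT CD library 4 and 150, 261 and 105 CPM in Gαq CD libraries 7, 8 and 9. It was at 1306 CPM or more in every other library. Pank1 was lowest in those low-Pdk4 libraries. Its Pearson r with Pdk4 was 0.88 (0.84 over deviations from the group means). The part of this split in the genotype differences of Pank1, also on control diet, was not tested.

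Levels of different genes were compared as CPM per kb of exon. In WT CD hearts Pank4 was highest at 19.6 ± 2.53 CPM per kb (SD, n = 4), above Pank1 at 11.4 ± 2.84 with no overlap of libraries. Pank1, Ppcs (8.46 ± 1.31), Pank2 (6.39 ± 0.41), Pank3 (6.35 ± 0.43) and Coasy (5.88 ± 1.20) followed in that order, and each of these overlapped its neighbour in the order. Ppcdc was lowest at 1.79 ± 0.20 CPM per kb, with no overlap with Coasy.

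Per kb of exon, Pank4 was the highest and Ppcdc the lowest in all 4 groups, while Pank1 stood lower in the order in Gαq hearts. Pank1 was the second gene of the order in WT CD and WT ERTU, at 11.4 and 12.7 CPM per kb. In Gαq CD it was the fourth, at 6.64 ± 2.71 CPM per kb (SD, n = 5), behind Ppcs at 10.03 and Pank2 at 6.96, and its libraries overlapped those of Pank2. In Gαq ERTU it was the third, at 8.64 ± 0.53 CPM per kb (SD, n = 4), behind Ppcs at 10.6 with no overlap. The order rests on the length used. Per kb of coding sequence, Pank1 was the highest of the 7 in WT CD (57.5 CPM), WT ERTU (64.1 CPM) and Gαq ERTU (43.5 CPM), and in Gαq CD it was the second, at 33.4 CPM behind Pank3 at 38.7 CPM, with overlap of libraries. By that length Coasy was the lowest in all 4 groups, Ppcdc was the fifth, and Pank4 was the third or the fourth.

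**Figure D1:**
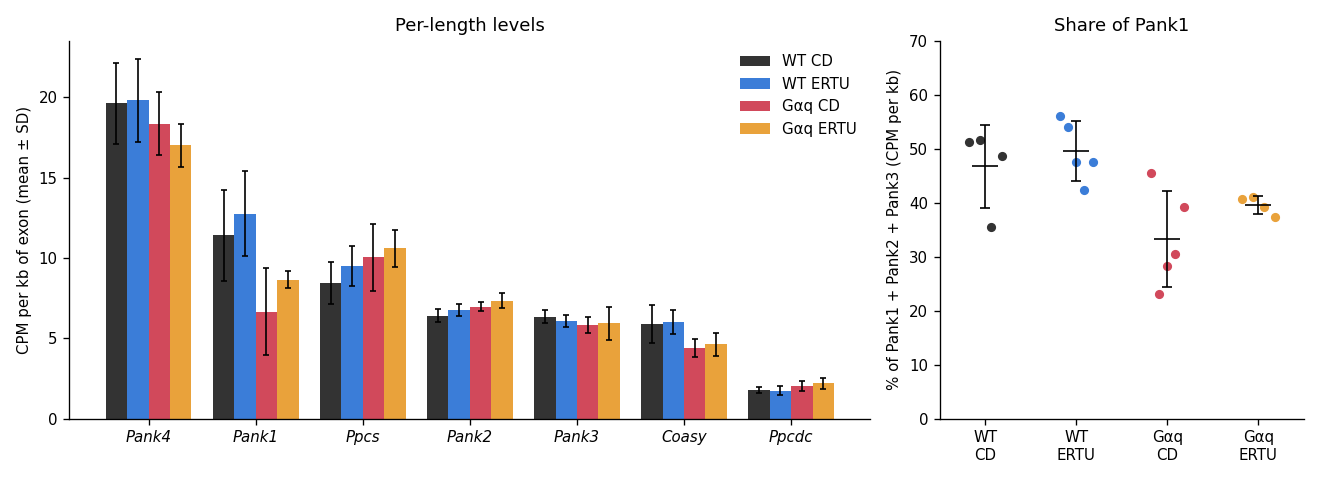
Per-length levels of the 7 genes (left; bars are group means in CPM per kb of exon, error bars 1 SD) and the share of Pank1 in the summed per-length level of Pank1, Pank2 and Pank3 (right; points are libraries, horizontal bars means, error bars 1 SD). Per kb of exon, Pank4 is the highest and Ppcdc the lowest in each group, and the share of Pank1 runs from 35.4% to 56.1% in WT and from 23.1% to 45.5% in Gαq libraries.

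Pank1 (ENSMUSG00000033610, chr19:34806940-34879455, minus strand) encodes pantothenate kinase 1, a cytosolic and nuclear enzyme known to be abundant in liver, heart and kidney. Its level in WT CD was 107, 105, 59.3 and 107 CPM in libraries 1, 2, 4 and 5. In Gαq CD it was 89.4, 34.3, 40.0, 46.0 and 64.8 CPM in libraries 6 to 10. Gαq CD libraries 7, 8 and 9 were below every WT library, libraries 6 and 10 were above WT CD library 4, and the groups overlapped.

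In WT ERTU Pank1 was at 129.5, 126, 94.4, 78.2 and 98.9 CPM in libraries 11 to 15. In Gαq ERTU it was at 65.4, 75.7, 72.9 and 71.8 CPM in libraries 16, 17, 18 and 20. These 4 libraries were close together and all below the 5 WT ERTU libraries. Across both diets, 9 of 9 Gαq libraries were below the WT median of 105 CPM.

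The fitted genotype difference of Pank1 was -0.67 ± 0.16 on the log2 scale (SE; edgeR adjusted p = 0.00475). It stayed called when each library in turn was left out, with adjusted p between 0.000652 and 0.0121; without WT CD library 4 it was -0.74 (adjusted p = 0.00188). In the 9 libraries with under 10 CPM of the atrial marker Myl7 (an alternative chosen after the data were seen) it was -0.51 and was not called. These were 2 of WT CD, 3 of WT ERTU, 3 of Gαq CD and 1 of Gαq ERTU, so the call was lost in a small and uneven set. The part of atrial tissue in that loss was not tested.

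On control diet alone the log2 fold change of Pank1 was -0.78 ± 0.23 (adjusted p = 0.0397). It was the 1 gene of the 7 called, against 8.10% of all genes called and 4.10% called lower. Without WT CD library 4 the difference was -0.95 (adjusted p = 0.0124). This call was not firm. It was lost without WT CD library 1, 2 or 5, without Gαq CD library 7, 8 or 9, and without Gαq ERTU library 18, where adjusted p ranged up to 0.121, and in a fit of only the pair of groups compared (adjusted p = 0.101). On ERTU the difference was -0.56 ± 0.23 (adjusted p = 0.156), not called, although the fit of only those groups gave an adjusted p of 0.0279. Exact 2-sided permutation tests on log2 CPM, 28 in all for the 7 genes and unadjusted, gave p = 0.0476 on control diet and p = 0.0159 on ERTU, where the smallest possible p is 0.00794.

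**Figure D2:**
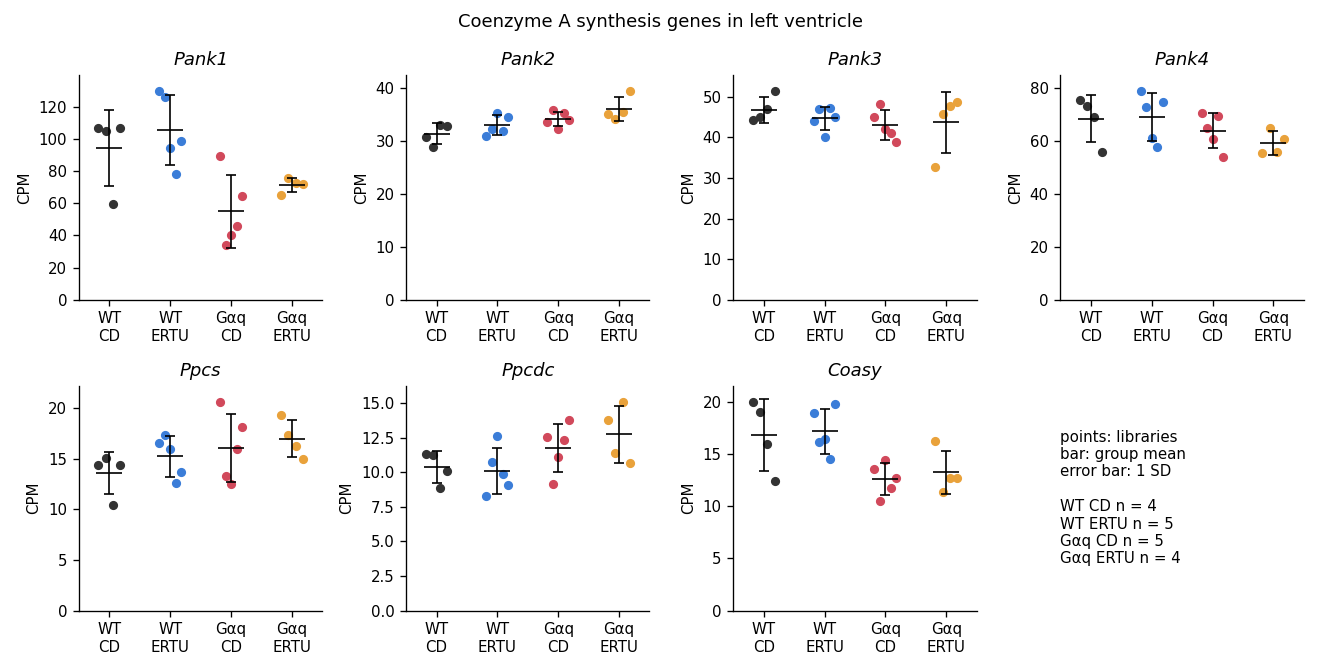
CPM of each gene in every library (points) with the group mean (horizontal bar) and 1 SD (error bar); every vertical axis starts at 0. In the Pank1 panel the 4 Gαq ERTU libraries, at 65.4 to 75.7 CPM, lie below all WT ERTU libraries, and 1 WT CD library lies at 59.3 CPM.

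Pank2 (ENSMUSG00000037514, chr2:131262495-131299188, plus strand) encodes a further pantothenate kinase. Its levels were 30.8, 28.8, 33.0 and 32.9 CPM in WT CD, and 33.6, 35.8, 32.3, 35.3 and 34.0 CPM in Gαq CD, in the library order given above. In WT ERTU they were 31.0, 32.4, 35.3, 32.0 and 34.6 CPM, and in Gαq ERTU 35.1, 34.3, 35.5 and 39.4 CPM. The groups overlapped on both diets. The spread was narrow, and the fitted genotype difference of 0.13 ± 0.05 did not pass the test (adjusted p = 0.0955); with upper quartile scaling and with limma voom it did, at adjusted p of 0.0494 and 0.0459. Pank2 shares 1125 exon bases with Rnf24 on the opposite strand and 359 with Gm14233 on its own strand, so its counts are uncertain to that extent.

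Pank3 (ENSMUSG00000018846, chr11:35769484-35791285, plus strand) encodes a cytosolic kinase. It lay between 44.2 and 51.3 CPM in WT CD, 40.2 and 47.2 in WT ERTU, 38.9 and 48.1 in Gαq CD, and 32.6 and 48.6 in Gαq ERTU. The low end of the last range was library 16, at 32.6 CPM, and the next lowest of that group had 45.9 CPM. The genotype difference was -0.08 ± 0.07 (adjusted p = 0.505).

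Pank4 (ENSMUSG00000029056, chr4:154964123-154980938, plus strand) encodes a protein that lacks pantothenate kinase activity and carries a phosphatase domain that acts on phosphopantetheine and related compounds. It measured 75.7, 73.1, 69.1 and 55.8 CPM in WT CD and 70.7, 64.8, 60.8, 69.6 and 54.2 CPM in Gαq CD, with the groups interleaved. It measured 78.8, 72.8, 61.2, 57.8 and 74.7 CPM in WT ERTU and 55.4, 65.1, 55.8 and 60.8 CPM in Gαq ERTU. All 9 Gαq libraries were below the WT median of 72.8 CPM, but the difference of -0.16 ± 0.08 did not pass the test (adjusted p = 0.170).

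Pank1 had a smaller mean share of the pantothenate kinase messages in Gαq than in WT hearts. Of the summed per-length level of Pank1, Pank2 and Pank3, Pank1 made up 46.7% ± 7.65 (SD, n = 4) in WT CD and 49.5% ± 5.56 (n = 5) in WT ERTU. The share was 33.3% ± 8.96 (n = 5) in Gαq CD and 39.5% ± 1.67 (n = 4) in Gαq ERTU. In single libraries it was 51.3, 51.5, 35.4 and 48.6% in WT CD and 45.5, 23.1, 28.3, 30.4 and 39.1% in Gαq CD, so the groups overlapped. On ERTU the WT libraries, at 56.1, 54.0, 47.5, 42.3 and 47.6%, were all above the Gαq libraries, at 40.6, 41.0, 39.1 and 37.3%. That gap rests on the exon length used. Per kb of coding sequence the lowest WT ERTU library (14) and the highest Gαq ERTU library (16) were both at 41.6%. The shares describe the same Pank1 counts as above and were not tested apart from them.

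Ppcs (ENSMUSG00000028636, chr4:119418530-119422420, minus strand) and Ppcdc (ENSMUSG00000063849, chr9:57385095-57440124, minus strand) encode the middle enzymes. Ppcs had 14.4, 15.1, 10.5 and 14.4 CPM in WT CD and 20.6, 13.3, 12.5, 16.0 and 18.2 CPM in Gαq CD. It had 16.5, 17.3, 16.0, 12.6 and 13.7 CPM in WT ERTU and 19.3, 17.4, 16.3 and 15.01 CPM in Gαq ERTU. The groups overlapped on both diets, 4 Gαq libraries were above all WT libraries, and the genotype difference of 0.20 ± 0.10 did not pass the test (adjusted p = 0.191). Without WT CD library 4 the genotype difference was 0.15 (adjusted p = 0.332), and that on control diet was 0.14 in place of 0.24.

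Ppcdc was the least abundant of the 7, with 138 to 294 read pairs per library. It had 11.4, 11.3, 8.85 and 10.1 CPM in WT CD and 12.5, 9.19, 11.1, 12.3 and 13.8 CPM in Gαq CD. It had 8.27, 10.8, 12.6, 9.85 and 9.08 CPM in WT ERTU and 13.8, 11.4, 15.1 and 10.7 CPM in Gαq ERTU. The groups overlapped on both diets, and the genotype difference of 0.26 ± 0.10 did not pass the test (adjusted p = 0.0807). It did without Gαq CD library 7 (adjusted p = 0.0353) and without WT ERTU library 13 (adjusted p = 0.0464).

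Coasy (ENSMUSG00000001755, chr11:101082565-101086619, plus strand) encodes the bifunctional CoA synthase that completes the molecule. In WT CD it measured 20.0, 19.1, 16.0 and 12.4 CPM, and in Gαq CD 13.6, 10.5, 14.5, 11.7 and 12.7 CPM. WT CD library 5 lay inside the Gαq CD range and the other 3 above it. In WT ERTU it measured 19.0, 16.2, 16.4, 14.6 and 19.8 CPM, and in Gαq ERTU 16.3, 11.4, 12.7 and 12.7 CPM. Gαq ERTU library 16 lay within the WT ERTU range and the other 3 below it.

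All 9 Gαq libraries were below the WT median of 16.4 CPM, and the fitted genotype difference of Coasy was -0.40 ± 0.10 (adjusted p = 0.00623). It stayed called without each library in turn (adjusted p from 0.00135 to 0.0181) and in the libraries low in Myl7, where it was -0.52 (adjusted p = 0.0218). Within a diet the differences were -0.42 ± 0.14 on control diet (adjusted p = 0.0773) and -0.37 ± 0.14 on ERTU (adjusted p = 0.122), neither called by edgeR. Both were called by limma voom with sample weights, at adjusted p of 0.0175 and 0.0325, and the first also without WT CD library 5 (adjusted p = 0.0166). Exact 2-sided permutation tests gave p = 0.0556 and p = 0.0476.

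By genotype, 3 of the 7 genes had positive and 4 had negative log2 fold changes, with a median of -0.08, beside 0.00 over all 16270 genes tested. The median size of the change regardless of sign was 0.20, beside 0.16 over all genes. On ERTU edgeR called 0 of 7 genes between genotypes, against 8.17% of all genes. At an unadjusted edgeR p under 0.05 there were 3 of the 7, beside 3537 of the 16270 genes tested. DESeq2 and limma on the deposited transformed values also called 0 and limma voom called 1.

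**Figure D3:**
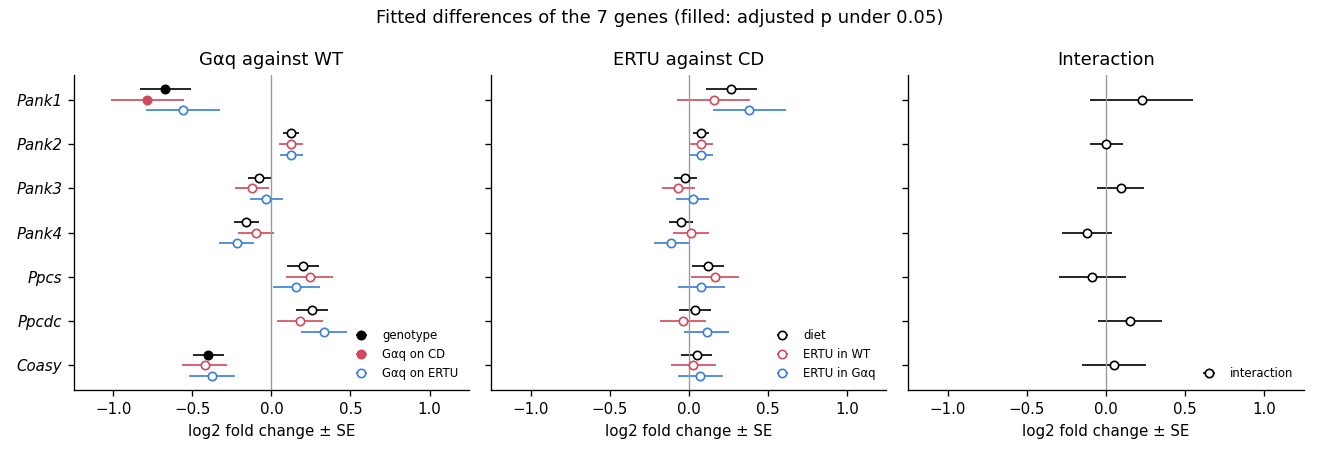
Fitted log2 fold changes (points) and standard errors (bars) of the 7 genes for Gαq against WT, for ERTU against CD and for the interaction; filled points have an edgeR adjusted p under 0.05. Pank1 and Coasy are filled for genotype, Pank1 also on control diet, and no point is filled for diet or interaction.

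The diet comparison asked whether ERTU shifted these messages. For diet over both genotypes edgeR called 0 of 7 genes, and 0 had an unadjusted p under 0.05, beside 1252 of the 16270 genes tested. DESeq2, limma voom and limma on the deposited values also called 0, and the background over all genes was 0%. Log2 fold changes ran from -0.05 (Pank4) to 0.27 ± 0.16 (Pank1, adjusted p = 0.670). ERTU in WT hearts and the interaction likewise gave 0 of 7 by each of these tools, against a background of 0%. At an unadjusted edgeR p under 0.05 there were again 0 of 7, beside 365 and 313 of all genes tested. For ERTU in Gαq hearts the count was again 0 by each tool, against 0.00615% of all genes, that is 1 gene of 16270. At an unadjusted edgeR p under 0.05 it was 0, beside 1240 of all genes tested.

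Pank1 in Gαq hearts had a mean of 54.9 ± 22.4 CPM (SD, n = 5) on control diet and 71.4 ± 4.37 CPM (n = 4) on ERTU. The log2 fold change was 0.38 ± 0.23 (adjusted p = 0.663; exact permutation p = 0.143, unadjusted), and the 4 ERTU libraries fell inside the range of the 5 control libraries. This value moved with single control libraries, to 0.63 without Gαq CD library 6 and to 0.25 without Gαq CD library 7, and was called in neither case. In WT hearts it was 0.16 ± 0.23 (adjusted p = 1.00) and -0.01 without WT CD library 4. The interaction, 0.22 ± 0.33, did not pass the test (adjusted p = 1.00), and it was 0.40 without WT CD library 4, 0.47 without Gαq CD library 6 and 0.09 without Gαq CD library 7. Gnaq itself was at 7466 ± 3814 CPM in Gαq CD and 3214 ± 1369 CPM in Gαq ERTU, a log2 fold change of -1.22 ± 0.52 (adjusted p = 0.653). The part of that gap in the values of Pank1 was not tested.

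Over the 18 libraries, the genes of highest Pearson r with Pank1 in log2 CPM were Acacb (r = 0.96), the acetyl-CoA carboxylase at the mitochondrial surface, Acsl1 (r = 0.96), the main long-chain acyl-CoA synthetase of the heart, and Dsg2 (r = 0.95), a desmosomal cadherin. The likeness to Acacb also held within groups, with r = 0.92 over deviations from the group means, and without WT CD library 4 it was 0.97. By those deviations the highest were Slc25a22 (r = 0.97), a mitochondrial glutamate carrier, Bcas3 (r = 0.92) and Snrk (r = 0.92). These are descriptions over libraries that share groups and scaling.

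Acacb shows the pattern in its values. It measured 583, 531, 372 and 591 CPM in WT CD and 415, 236, 201, 301.5 and 364 CPM in Gαq CD. It measured 748, 655, 444, 393 and 506 CPM in WT ERTU and 346, 422, 384 and 380.0 CPM in Gαq ERTU. As for Pank1, WT CD library 4 was the lowest of its group, Gαq CD libraries 7, 8 and 9 were the lowest of all, and WT ERTU libraries 11 and 12 were the highest. Its genotype difference was -0.65 ± 0.14 (adjusted p = 0.00269).

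**Figure D4:**
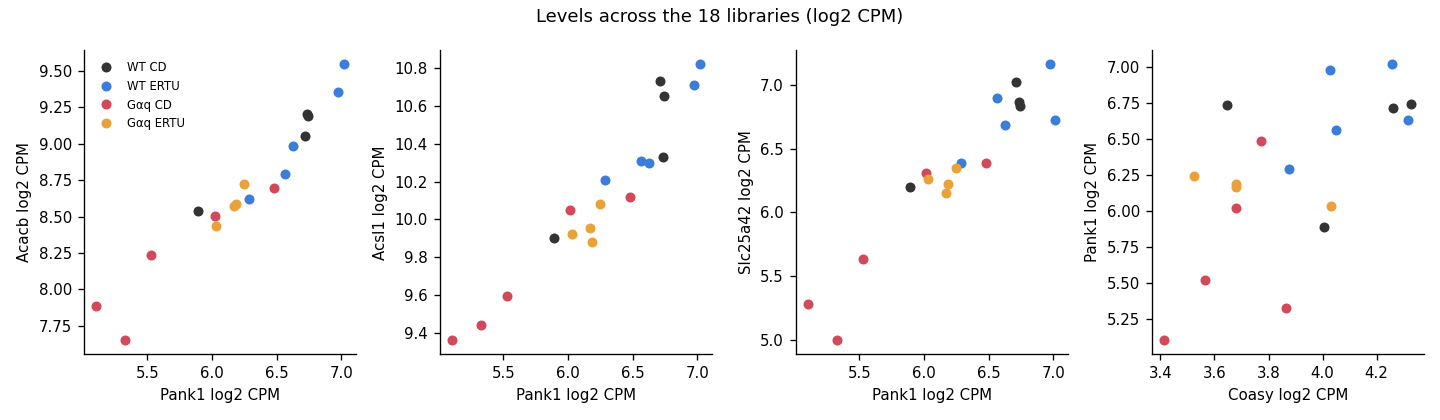
Log2 CPM of Acacb, Acsl1 and Slc25a42 against Pank1, and of Pank1 against Coasy, in the 18 libraries (points, coloured by group). The first 3 panels run along a line (r = 0.96, 0.96 and 0.95), while Pank1 and Coasy spread more widely (r = 0.62).

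The genes most like the other 6 were found by the same measures. The 3 genes most like Coasy were Apeh (r = 0.93), an acylpeptide hydrolase, Mrps9 (r = 0.92), a mitochondrial ribosomal protein, and Abhd11 (r = 0.92), a mitochondrial hydrolase, and within groups Ldha (r = 0.90), Vdac2 (r = 0.89) and Cdc37 (r = 0.88). Those most like Pank4 were Tmod1 (r = 0.89), Hcfc2 (r = 0.89) and Mlxipl (r = 0.89), and within groups Lzic (r = 0.92), Actc1 (r = 0.90) and Dlst (r = 0.90). For Pank3 they were Abca1 (r = 0.87), Nsd3 (r = 0.86) and Brwd3 (r = 0.85), and within groups Lmbrd2 (r = 0.91), Tug1 (r = 0.90) and Nsd3 (r = 0.88).

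For Pank2 the highest values were lower, with Pcyox1l (r = 0.77), Nfkbie (r = 0.75) and Nectin1 (r = 0.74), and within groups Arap3 (r = 0.83), Pcdh1 (r = 0.83) and 2510016D11Rik (r = 0.82). For Ppcs they were Slc37a1 (r = 0.87), Sema3b (r = 0.85) and Pabpc4 (r = 0.84), and within groups Fbxo21 (r = 0.95), Pygb (r = 0.93) and Slc25a42 (r = 0.92), which also ranked high for Pank1 (r = 0.88 within groups). For Ppcdc they were Gm10052 (r = 0.82), Nemp1 (r = 0.79) and AC110212.1 (r = 0.78), and within groups Tnnt1 (r = 0.80), Gm40604 (r = 0.79) and Gm10052 (r = 0.78).

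Among themselves the 7 genes did not move as a unit. Over the 21 pairs r ran from -0.58 (Pank2 and Coasy) to 0.62 (Pank1 and Coasy), with a median of -0.07, and 9 pairs were positive. Over deviations from the group means the pair of Pank1 and Coasy fell to 0.23, whereas Pank1 and Ppcs rose from 0.31 to 0.87. Pank1 and Pank3 were near 0 by both measures, at 0.18 and -0.01.

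Slc25a42, Nudt7 and Ndufab1 were the genes around the route that were called by genotype, each lower in Gαq hearts. Of 15 further genes of CoA supply, breakdown, transport and use, 14 were tested, so that these 3 made up 21.4%, a share near the 19.6% of all genes tested. The median log2 fold change over the 14 was -0.13. By diet edgeR called 0 of the 14, and DESeq2, limma voom and limma on the deposited values also called 0. At an unadjusted edgeR p under 0.05 there were 3 of the 14, beside 1252 of the 16270 genes tested. These lists were drawn up with earlier results of these data known.

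Slc25a42, the carrier that brings CoA into the mitochondrial matrix, had 114, 130.2, 73.4 and 116 CPM in WT CD and 83.5, 38.7, 31.7, 49.5 and 78.9 CPM in Gαq CD. It had 106, 143, 119, 83.5 and 103 CPM in WT ERTU and 76.4, 81.4, 74.4 and 70.8 CPM in Gαq ERTU, where the groups did not overlap. The genotype difference was -0.75 ± 0.17 (adjusted p = 0.00273), and in the libraries low in Myl7 it was -0.63 (adjusted p = 0.153). Its r with Pank1 was 0.95, the fourth highest of all genes tested, and 0.88 over deviations from the group means. The remaining carriers, Slc25a16 (-0.12 ± 0.07) and the peroxisomal Slc25a17 (0.14 ± 0.08), did not pass the test.

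Nudt7, a peroxisomal hydrolase that breaks down CoA, had 91.8, 114, 69.2 and 89.6 CPM in WT CD and 63.9, 35.4, 43.1, 36.3 and 69.1 CPM in Gαq CD with no overlap, although the lowest WT CD library (69.2 CPM) and the highest Gαq CD library (69.1 CPM) nearly met. It had 96.8, 100.5, 109.8, 124 and 80.3 CPM in WT ERTU and 71.5, 53.7, 60.7 and 69.98 CPM in Gαq ERTU, again with no overlap. The genotype difference was -0.78 ± 0.13 (adjusted p = 0.000223), and -0.67 in the libraries low in Myl7 (adjusted p = 0.0732). The other CoA hydrolases, the mitochondrial Nudt8 (0.00 ± 0.14) and the peroxisomal Nudt19 (-0.08 ± 0.06), did not pass the test.

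Ndufab1, the mitochondrial acyl carrier protein, which bears a phosphopantetheine arm taken from CoA, ranged from 73.6 to 103 CPM in WT and from 63.4 to 84.6 CPM in Gαq libraries, and 8 of 9 Gαq libraries were below every WT library. Its genotype difference was -0.35 ± 0.07 (adjusted p = 0.000804), and it stayed called in the libraries low in Myl7 (-0.40, adjusted p = 0.0165). Aasdhppt, which transfers that arm to carrier proteins, was at -0.14 ± 0.07 (adjusted p = 0.157). Its acceptors Fasn (0.48 ± 0.26), Aldh1l1 (-0.38 ± 0.16) and Aldh1l2 (-0.09 ± 0.12) did not pass the test.

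At the supply end, Slc5a6, the multivitamin transporter that imports pantothenate, was at -0.23 ± 0.08 (adjusted p = 0.0576), just outside the threshold, with 13.0 to 15.2 CPM in WT CD and 9.79 to 13.3 CPM in Gαq CD. Vnn1, a pantetheinase that recycles pantothenate, did not exceed 2.07 CPM in any library, and Vnn3 did not pass the filter. Dcakd, a relative of the dephospho-CoA kinase part of Coasy, was at -0.15 ± 0.14 (adjusted p = 0.494).

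Further lists held genes that use CoA to activate or release acyl groups, and their counts stand beside 19.6% of all genes called by genotype and 9.92% called lower. Of 9 acyl-CoA synthetases 2 were called, both lower in Gαq hearts (22.2%, near the share of all genes): Acsl1 at -0.61 ± 0.13 (adjusted p = 0.00147) and the mitochondrial acetyl-CoA synthetase Acss1 at -0.57 ± 0.14 (adjusted p = 0.00749). Of 8 tested thioesterases, which free CoA from acyl groups, 3 were called lower (Acot1 at -1.51, Acot2 at -1.16, Acot11 at -0.53) and 1 higher (Acot9 at 0.21), together 50.0%. Of 16 genes known as targets of PPARα, the nuclear receptor that drives fatty acid oxidation genes, 10 were called lower (62.5%) and 0 higher, with a median of -0.59. Among them were Acot1, Acaa2 (-0.90), Acadm (-0.58), Cpt1b (-0.59), Ehhadh (-1.29), Fabp3 (-0.51), Hadha (-0.60), Slc25a20 (-0.59) and Ucp3 (-1.47). By diet edgeR, DESeq2, limma voom and limma on the deposited values called 0 genes of these 3 lists. At an unadjusted edgeR p under 0.05 there were 3, 1 and 5 genes, beside 1252 of the 16270 genes tested. The log2 fold changes of the PPARα targets by diet were positive for 16 of 16, with a median of 0.39, beside 8050 of 16270 genes tested and a median of -0.0017. They were positive for 16 of 16 within each genotype too, with a median of 0.14 in WT and 0.51 in Gαq hearts. The WT values include WT CD library 4. Its Ucp3 was at 23.1 CPM, against 187 to 240 in the other WT CD libraries and 117 to 257 in WT ERTU. Its Cpt1b was at 8.33 CPM, against 14.05 to 20.6 and 12.5 to 22.1. Acadm, Acaa2 and Fabp3 were lowest in WT CD library 5 instead. The Gαq values include Gαq CD libraries 7, 8 and 9, low in Pdk4. Their Ucp3 was at 8.22, 14.8 and 10.4 CPM, against 79.6 and 104.4 in libraries 6 and 10 and 61.15 to 130.0 in Gαq ERTU. Their Cpt1a was at 41.4, 56.8 and 47.2 CPM, against 94.0 and 94.3 and 92.8 to 103.0. For Acadm the gap was smaller, at 1079, 1183 and 1072 CPM against 1257 and 1259 and 1133 to 1383. The WT count without library 4 and the Gαq count without libraries 7, 8 and 9 were not made. The genes share libraries, and the counts were not tested. By diet 6 of the 9 synthetases and 6 of the 8 thioesterases were positive, with medians of 0.01 and 0.06.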

How the data were processed

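Per the labels, the authors aligned reads to mm10 with STAR 2.6.0c and counted with featureCounts (Subread 1.6.2). The deposited table holds raw counts of read pairs per Ensembl gene. A further deposited table holds log2-like values that the authors made by variance stabilization (DESeq2 1.23.10), used here for an alternative. Of 55450 identifiers, 99.5% matched GENCODE M21 (GRCm38).

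Differences were tested with the edgeR 4.0.16 quasi-likelihood test (R 4.3.3, TMM scaling, filterByExpr, Benjamini-Hochberg over 16270 genes, threshold 0.05), checked on simulated data. Genotype and diet came from a two-factor model, as in the study; pairs of groups and their interaction were contrasts of a fit with a separate mean for each group. CPM used TMM factors; log2 CPM used a prior count of 2. DESeq2 1.42.0 and limma 3.58.1 were alternatives. P-values measure the spread between libraries; the study's methods describe 4 to 5 hearts per group, as many as the libraries, and the labels name no single mice.

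The members, gene lists and motifs were chosen with earlier results of these data known. Named genes were all members, all tested genes of CoA supply, breakdown, transport and carriers, called genes of the other lists, Pdk4, and the 3 genes most like each member. A withheld item is not reported here by name.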

Additional observations from a re-analysis of the deposited data

Results flagged for a closer look

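Among 84 sets of values (each of the 7 members and 14 tested pathway genes in each group), 7 had a library whose gap to its nearest neighbour, as a share of the group's range, exceeded Dixon's 95% critical value; chance would give about 4.2. In WT CD, library 4 was the lowest for Pank1 (59.3 CPM against 105 to 107 in the others, gap 0.96 of the range) and for Ppcs (10.5 CPM against 14.4 to 15.1, gap 0.844). Vnn1 was highest in WT ERTU library 14 (0.995 CPM against at most 0.30, gap 0.74) and in Gαq ERTU library 20 (2.07 CPM against at most 0.487, gap 0.941). In Gαq CD, Nudt8 was highest in library 10 (3.79 CPM against at most 2.95, gap 0.759) and Fasn in library 8 (167 CPM against at most 70.8, gap 0.719). Nudt19 was highest in WT ERTU library 12 (33.4 CPM against at most 31.4, gap 0.782). WT ERTU library 14, Gαq ERTU library 20 and Gαq CD library 8 also had the highest summed fat markers of their groups (26.7, 107.8 and 43.7 CPM). WT CD library 4, Gαq CD library 10 and WT ERTU library 12 did not. The part of fat tissue in the flagged values was not tested.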

How the results depend on the processing

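Counts of called genes kept within 1.5 times of the main count under median-of-ratios and upper quartile scaling, no filter, a filter at a mean CPM of 1, DESeq2 and limma on the deposited values. Of the 7 members, 1 was called by genotype in the 9 libraries with Myl7 under 10 CPM (chosen after seeing the data; this fit had fewer samples), and of the pathway genes 1. On control diet limma voom called 2 members and the fit of only the groups compared 0; leaving out libraries gave 0 to 1. On ERTU limma voom and the fit of only those groups called 1 each.

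Changes of sign were of values near 0 that were not called. The interaction of Pank2 was -0.00314 with median-of-ratios scaling, -0.000853 with no filter, -0.00163 with DESeq2, -0.00843 with limma voom and -0.00418 on the deposited values. By limma voom Pank3 was 0.0183 for diet and 0.0310 between genotypes on ERTU, and ERTU in WT gave -0.0261 for Pank4 and -0.0591 for Coasy. In the libraries low in Myl7, Pank3 was 0.0349 for diet. The cause was not tested.

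Leaving out libraries gave these log2 fold changes. For diet the range was -0.0506 to 0.0285 for Pank3, -0.0102 to 0.0721 for Ppcdc and -0.00409 to 0.0948 for Coasy. For Pank3 between genotypes on ERTU it was -0.0877 to 0.0841. For ERTU in WT it was -0.00914 to 0.248 for Pank1, -0.0725 to 0.0708 for Pank4, -0.131 to 0.0254 for Ppcdc and -0.0933 to 0.119 for Coasy. For ERTU in Gαq it was -0.0308 to 0.141 for Pank3, -0.000701 to 0.181 for Ppcs and -0.0369 to 0.139 for Coasy. For the interaction it was -0.0431 to 0.0414 for Pank2, -0.166 to 0.0213 for Ppcs and -0.0638 to 0.167 for Coasy.

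The share of Pank1 in the Pank1 to Pank3 level moved by less than 1 SD with the longest transcript or the coding length. Ppcdc had 138 to 294 read pairs per library and Ppcs 181 to 388, with genotype standard errors of 0.10 for each. Changes of about that size could not be resolved. Coasy had 197 to 347 read pairs and a standard error of 0.10, and it was called by genotype at -0.40. No paired analysis was possible because the library numbers of the table run across the series and were not tied to the replicate numbers of the labels.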
